A study of Mus musculus with 20 samples.

Results

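The 9 genes described here encode hormone receptors and transcription factors of the luminal layer of the mammary gland. They are Esr1, Pgr, Prlr, Foxa1, Gata3, Elf5, Ehf, Stat5a and Tfap2c. They were listed by name, with earlier results of these data known, and each matched 1 of the 45706 gene identifiers in the count tables. Messenger RNA was measured by RNA sequencing in 20 samples of 6 groups. The mice carried MMTV-PyMT, a transgene in which the mouse mammary tumor virus promoter drives the polyoma middle T oncogene in mammary epithelium, on a C57BL/6N background. Tumors of 18-week-old mice came from 4 control mice with intact CTSD, whose Ctsd alleles were untargeted or floxed, and from 4 MMTV-cre;Ctsd-/- mice, in which the same type of promoter drives cre and deletes cathepsin D in basal and luminal mammary epithelium. Tumor cells were immortalized spontaneously from end-stage tumors, as a single Ctsd+/+ line and a single MMTV-cre;Ctsd-/- line, each of 1 mouse. They were starved in medium with 1% fetal calf serum (FCS), either for 10 days, called 1% FCS here, or for 12 weeks, called 1% FCS LT, with 3 replicates per group. The genotype of the cells is therefore also a difference between lines, and the spread between replicates is that of repeat cultures of a line, not of mice.

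Luminal cells of the mammary gland are of a hormone-sensing and a secretory, or alveolar, kind. Sensing cells carry the estrogen receptor ESR1, which needs the pioneer factor FOXA1 to reach closed chromatin and which induces the progesterone receptor PGR. GATA3 specifies and maintains luminal cells, and TFAP2C is a further luminal factor. The prolactin receptor PRLR activates STAT5A through the kinase JAK2, and ELF5, an ETS factor, drives the alveolar fate that makes milk proteins. EHF is a related epithelium-specific ETS factor. The MMTV promoter is itself responsive to steroid hormones.

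Gene counts per sample ranged from 49725437 to 64291587 in tumors and from 33622831 to 40239762 in cells. Values are counts scaled to library size (CPM), adjusted for composition over all 20 samples, and values set between genes are divided by the summed exon length of the gene in kb. Ctsd had 1739 to 2541 CPM in the control tumors and 344 to 1276 CPM in the Ctsd-/- tumors, and in cells 1264 to 4053 CPM in the Ctsd+/+ and 118 to 197 CPM in the Ctsd-/- samples, so no sample went against its label. Sample descriptions end in a number that was the same for all control tumors and another for all Ctsd-/- tumors, so that number and genotype cannot be told apart there. In cells 8 of the 12 samples shared the same number, while replicate 1 of both genotypes in 1% FCS and replicate 3 of both in 1% FCS LT had others. The luminal marker list, 10 genes such as the keratins Krt8 and Krt18, had summed levels of 5261 to 9149 CPM over the tumors, and all 10 were present. In cells Kit had 3 counts or fewer per sample in 3 of the 4 groups, and the luminal sum was 1012 to 2464 CPM in Ctsd+/+ 1% FCS cells against 7786 to 16494 CPM in the other 3 groups. The same Ctsd+/+ 1% FCS cells had 3791 to 6256 CPM of 9 fibroblast and mesenchyme markers, above all Vim and Col1a1, against 5.16 to 945 CPM in the other cells. In bulk RNA, fewer cells of a type and less RNA per cell cannot be told apart. Replicate 1 of the Ctsd+/+ 1% FCS cells also stood apart from its group in several of the genes below, and results that rest on it are given without it.

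In tumors the 9 genes were all well detected. Per kb of exon, control tumors had the highest level of Gata3, with 82.4 ± 15.0 CPM per kb (SD, n = 4), and next of Ehf with 71.3 ± 17.3. Elf5 and Tfap2c followed with 25.4 ± 3.93 and 24.2 ± 3.94 CPM per kb, then Stat5a with 10.6 ± 4.02 and Prlr with 9.90 ± 2.38. Foxa1 (2.42 ± 1.62), Esr1 (1.03 ± 0.526) and Pgr (0.497 ± 0.233 CPM per kb) were the lowest. The estrogen receptor, its pioneer factor and its target Pgr were thus the scarcest of the 9, and the factors of alveolar and general luminal cells the most abundant. Ctsd-/- tumors had the same order apart from Prlr, which at 17.6 ± 11.4 CPM per kb stood above Stat5a at 11.9 ± 3.10, a difference within the spread. In the cells Gata3 was again first in all 4 groups, with 9.42 to 24.7 CPM per kb as group means. The scarcest gene was Prlr in Ctsd+/+ 1% FCS cells, Elf5 in Ctsd+/+ 1% FCS LT cells and Pgr in both groups of Ctsd-/- cells.

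**Figure D1:**
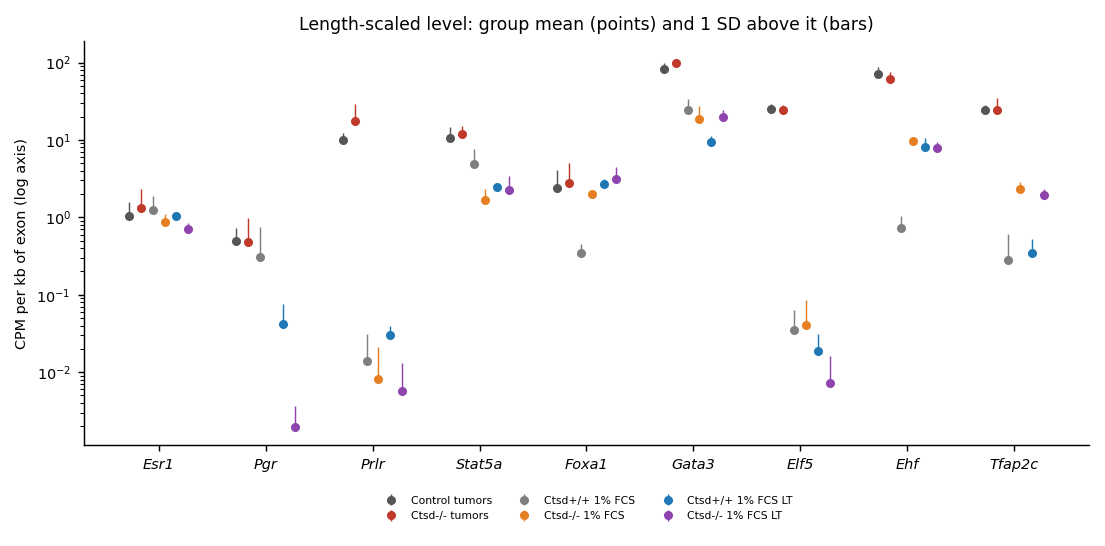
Length-scaled level (CPM per kb of exon, log axis) of the 9 genes in the 6 groups, with points for group means and bars for 1 SD above the mean. Pgr had no count in the Ctsd-/- 1% FCS cells and has no point there, and Prlr and Elf5 lie under 0.05 CPM per kb in every cell group while they lie at 9.90 or higher in tumors.

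Cultured cells and tumors differed widely in these genes. Of the 9, 7 were lower and 0 higher in Ctsd+/+ 1% FCS cells than in control tumors, with an absolute log2 fold change (FC) above 1 and an adjusted p below 0.05. Over all genes tested 65.6% were past this threshold, 39.8% lower and 25.8% higher, and the median log2 FC of all genes was -0.50. Among the 9 the median was -2.78. Tissue and culture also differed in library input and strandedness, so these values compare the materials and the causes cannot be told apart.

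Elf5 and Prlr were all but absent from the cells. Elf5 had 121, 162, 173 and 140 CPM in control tumors 1 to 4, and 0.260, 0.335 and 0.0261 CPM in Ctsd+/+ 1% FCS cells. In counts this was 35667 in the tumors against 21 in the cells, a ratio per library of 751 (95% exact interval 491 to 1213, counting error only). Its highest value in the 12 cell samples was 0.549 CPM, in Ctsd-/- 1% FCS replicate 1, and it did not pass the filter on low counts in cells, so it has no test between cell groups. Prlr had 201, 118, 131 and 157 CPM in the control tumors, and 0.521, 0.0913 and 0.0261 CPM in Ctsd+/+ 1% FCS cells, a count ratio of 731 (483 to 1167). The alveolar factor and the prolactin receptor were thus both lower in every cell sample than in every tumor.

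Ehf and Tfap2c were also lower in the cells, by less. The log2 FC was -6.61 for Ehf (SE 0.351, adjusted p = 3.13e-11) and -6.42 for Tfap2c (SE 0.680, adjusted p = 1.28e-07). Foxa1 followed with -2.78 (SE 0.600, adjusted p = 0.000383) and Gata3 with -1.74 (SE 0.280, adjusted p = 1.91e-05). The groups did not overlap for any of these 4. Of the 9 genes 6 had no overlap, beside 88 of the 126 genes tested from the 3 pathway lists below. The share over all genes was not counted, so these counts do not set the 9 genes apart from other genes. For Ehf, Tfap2c and Foxa1 the log2 FC compares tumors with the cell group in which each had its lowest mean. In the other cell groups Foxa1 had group means of 6.63 to 10.3 CPM, and these overlapped with the tumors (2.82 to 19.7 CPM), whereas Ehf at 43.4 to 53.8 CPM and Tfap2c at 1.28 to 8.58 CPM remained below every tumor. Stat5a was lower by a smaller log2 FC of -1.11 (SE 0.388, adjusted p = 0.0143) with overlapping groups, and fell short of an absolute value of 1 without control tumor 1 (-0.99) or 2 (-0.96) or without Ctsd+/+ replicate 2 (-0.98) or 3 (-0.82). Esr1 (0.26, SE 0.461, adjusted p = 0.614) and Pgr (-0.69, SE 1.05, adjusted p = 0.553) did not pass. In limma-voom Pgr passed, with -3.12 and an adjusted p of 0.0369. Without Ctsd+/+ replicate 1 Pgr had -3.09 and an adjusted p of 0.0323, and Esr1 had -0.27 with an adjusted p of 0.637.

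**Figure D2:**
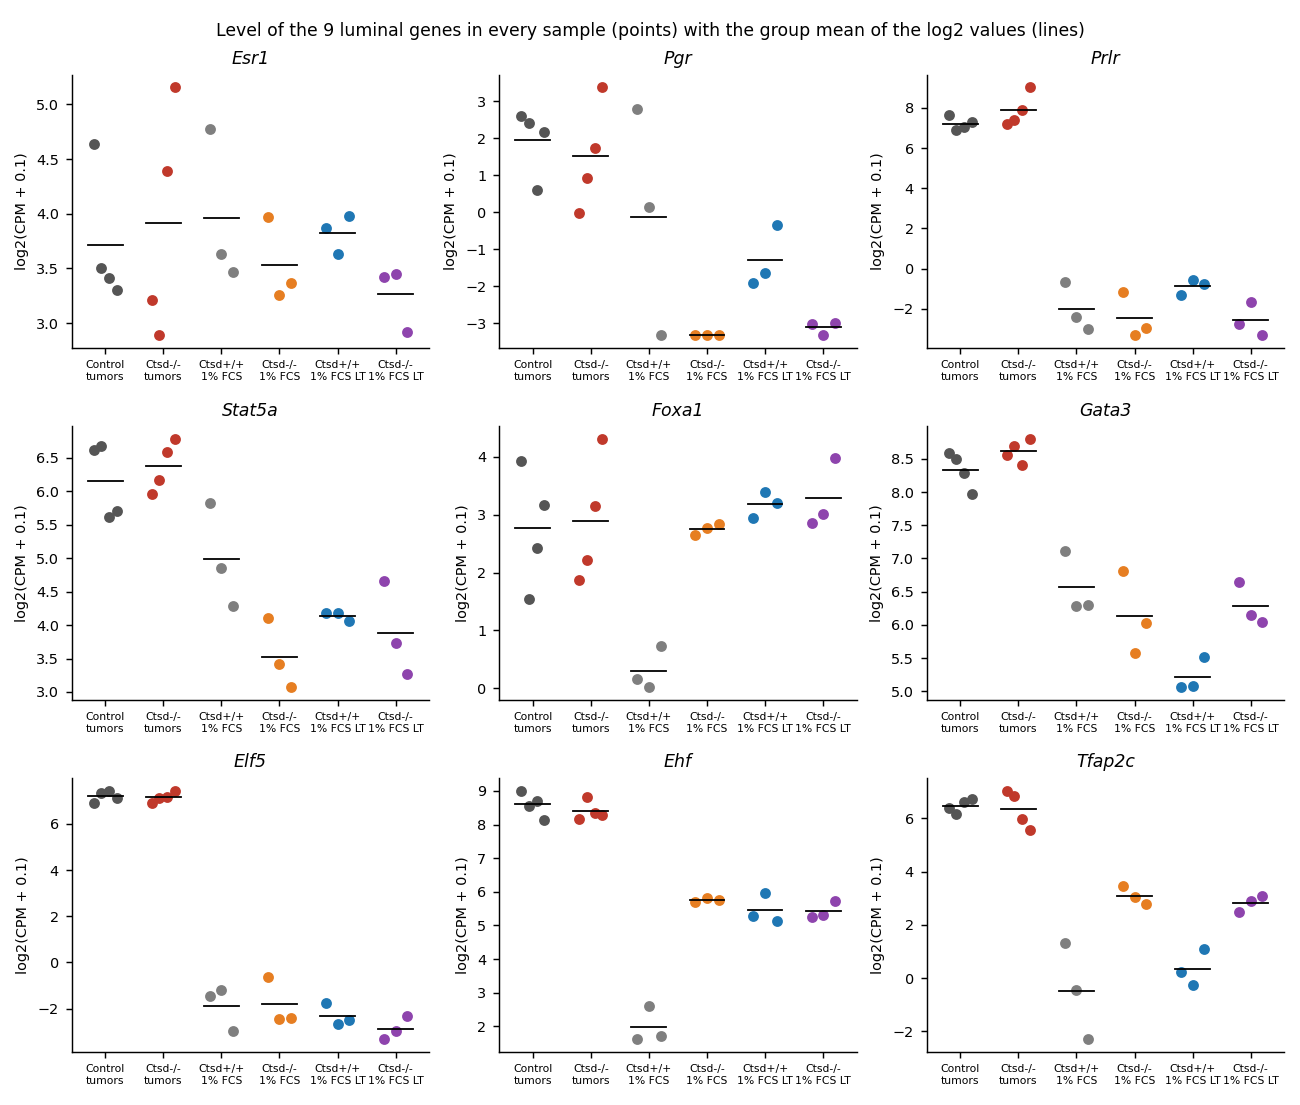
Level of each of the 9 genes, as log2(CPM + 0.1), in every sample of the 6 groups, with points for samples and lines for the group mean of these log2 values. Prlr and Elf5 separate tumors from cells, Foxa1 and Ehf are lowest in the 3 Ctsd+/+ 1% FCS samples, and Tfap2c is higher in all 6 Ctsd-/- cell samples than in all 6 Ctsd+/+ cell samples.

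Tumors of control and Ctsd-/- mice were compared at the threshold the study used for them, an unadjusted p under 0.1. Of the 9 genes only Prlr passed, against 16.7% of all genes tested (8.44% higher, 8.27% lower), and 0 of the 9 had an adjusted p under 0.05 in edgeR, against 0.00537% of all genes (1 gene). At an unadjusted p under 0.05 none of the 9 passed in edgeR, and at the threshold of 0.1 DESeq2 passed Prlr and limma-voom no member. All 9 had overlapping groups. The median log2 FC of the 9 was 0.16, beside 0.00073 for all genes.

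Prlr lies on chromosome 15 from 10177238 to 10349180 (GRCm38) and had 201, 118, 131 and 157 CPM in control tumors 1 to 4. In Ctsd-/- tumors 1 to 4 it had 147, 166, 238 and 525 CPM. The log2 FC in edgeR was 0.81 (SE 0.389, unadjusted p = 0.0627, adjusted p = 0.569). Ctsd-/- tumor 4 was above all others, and without it the log2 FC was 0.27 (edgeR adjusted p = 0.925). Leaving out control tumor 2 or 3 also ended the call, with log2 FCs of 0.71 and 0.74. The summed level of 9 adipocyte markers was 318, 983, 227 and 2221 CPM in control tumors 1 to 4 and 2950, 1156, 7163 and 11997 CPM in Ctsd-/- tumors 1 to 4, and 9 of 9 markers had a mean of at least 1 CPM in the Ctsd-/- and 8 of 9 in the control tumors. Ctsd-/- tumors 4 and 3 were the highest of the 8 for both Prlr and this sum, whereas control tumor 1, with the most Prlr of its group, had a low sum, and Ctsd-/- tumor 1, with the least Prlr of its group, had a higher sum than tumor 2. With the mean log2 CPM of these markers as a covariate, Prlr had a log2 FC of -0.28 (edgeR adjusted p = 0.986). With luminal markers as the covariate it had 0.51 (edgeR adjusted p = 0.846). All 9 adipocyte markers passed the unadjusted threshold themselves, with a median log2 FC of 2.88, as did 5 of 7 endothelial markers, and the part of these cell types in the Prlr values was not tested.

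A promoter of Prlr is shown since it is the single promoter among those of the 9 genes that held both a forkhead and a STAT motif, the motifs of 2 factor families in this set. The other RefSeq promoters of Prlr, from 10176988 and from 10293401 on chromosome 15, held neither motif, and which start was in use was not tested. The sequence shown, taken from RefSeq (GRCm38.p6), runs from 250 bases before to 50 bases after the transcription start at chr15:10223656-10223955 on the plus strand. Capitals mark the forkhead core TGTTTAC, starting at -215, and the STAT palindrome TTCNNNGAA, starting at -110 from the start.
Prlr: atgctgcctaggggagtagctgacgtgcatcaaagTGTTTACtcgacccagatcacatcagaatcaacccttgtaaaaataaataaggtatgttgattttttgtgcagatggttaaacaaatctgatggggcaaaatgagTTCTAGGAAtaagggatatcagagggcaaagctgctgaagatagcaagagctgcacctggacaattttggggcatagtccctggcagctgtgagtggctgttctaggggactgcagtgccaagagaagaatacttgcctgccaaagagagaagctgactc

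Of the other receptors, Esr1 (chromosome 10, 4611593 to 5005614) had 24.9, 11.2, 10.6 and 9.75 CPM in the control tumors and 9.19, 7.30, 20.9 and 35.6 CPM in the Ctsd-/- tumors. Pgr (chromosome 9, 8899833 to 8968611) had 5.93, 5.23, 1.41 and 4.41 CPM in the control and 0.884, 1.81, 3.25 and 10.4 CPM in the Ctsd-/- tumors. Their log2 FCs were 0.35 (SE 0.501, adjusted p = 0.819) and -0.081 (SE 0.697, adjusted p = 0.978). Without Ctsd-/- tumor 4 Pgr was past the threshold, with a log2 FC of -1.11 (edgeR unadjusted p = 0.0864, adjusted p = 0.925). Both receptors varied widely between mice of a genotype, by up to 4.88 times for Esr1 and 11.7 times for Pgr among the Ctsd-/- tumors. Stat5a, on chromosome 11 from 100859351 to 100885169, had 49.1 to 102 CPM in the control and 62.3 to 110.2 CPM in the Ctsd-/- tumors.

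Foxa1 had 15.2, 2.82, 5.24 and 8.92 CPM in the control tumors and 3.57, 4.54, 8.80 and 19.7 CPM in the Ctsd-/- tumors. The tumors highest in Foxa1 were also highest in Esr1, namely Ctsd-/- tumor 4 and control tumor 1. Ctsd-/- tumor 4 was the highest of the 8 tumors for Esr1, Pgr, Prlr, Foxa1, Gata3 and Stat5a, and the lowest for Tfap2c with 47.1 CPM. Tfap2c had 72.0 to 105 CPM in the control and 47.1 to 131 CPM in the Ctsd-/- tumors. Gata3, Elf5 and Ehf varied less, with the highest tumor of a genotype 1.31 to 1.83 times the lowest. Gata3 had 251 to 386 CPM in the control and 340.5 to 446 CPM in the Ctsd-/- tumors (log2 FC 0.26, SE 0.208, adjusted p = 0.690), Elf5 121 to 173 and 120.3 to 171 CPM, and Ehf 282 to 514 and 289 to 455 CPM.

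**Figure D3:**
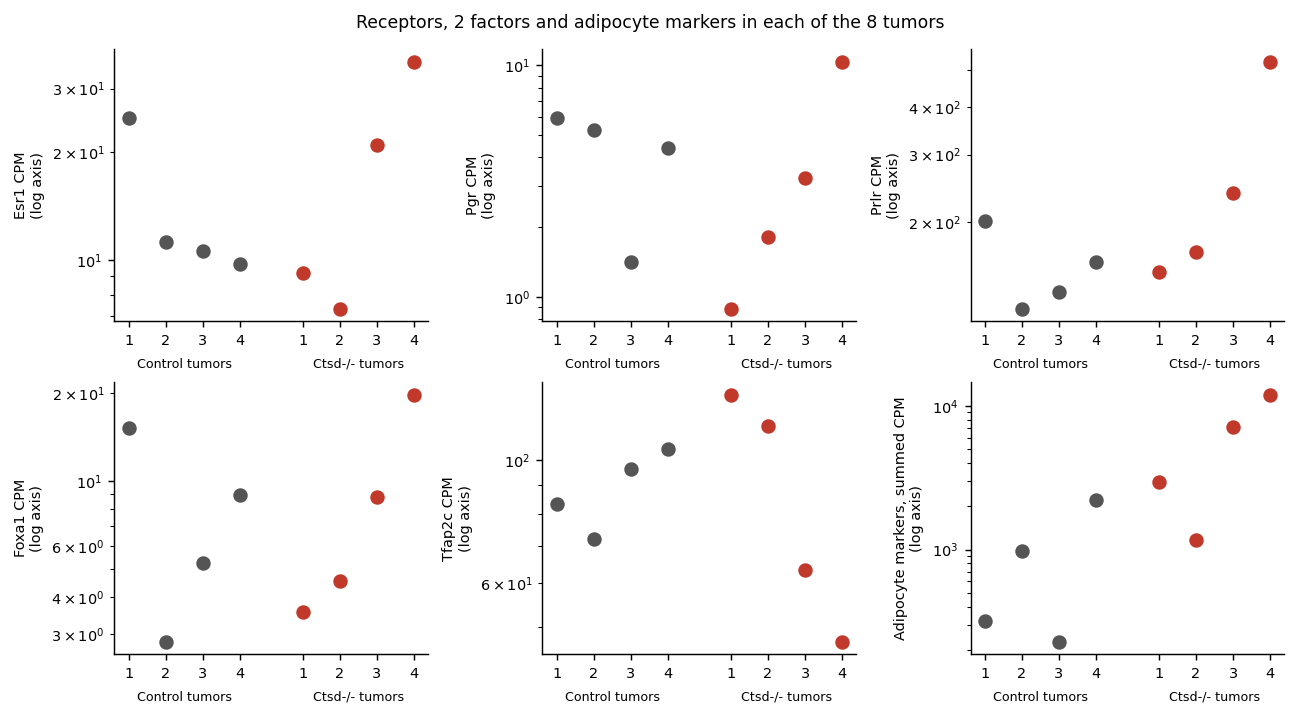
Esr1, Pgr, Prlr, Foxa1 and Tfap2c (CPM) and the summed CPM of 9 adipocyte markers in each of the 8 tumors, with a point for each tumor, its number on the horizontal axis and a log axis in each panel. Ctsd-/- tumor 4 is the highest in all panels but that of Tfap2c, where it is the lowest.

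In cells starved for 10 days the question was how the lines of both genotypes differ in 1% FCS. Of the 8 genes tested 5 were past the threshold given above, namely Foxa1, Ehf and Tfap2c, which were higher in Ctsd-/- cells, and Pgr and Stat5a, which were lower. Of all genes tested 25.0% passed, 10.3% higher and 14.6% lower. In 1% FCS LT only Gata3 and Tfap2c passed, both higher in Ctsd-/- cells, against 19.4% of all genes, 9.24% higher and 10.1% lower. The change from 10 days to 12 weeks was past the threshold for 3 of the 8 genes in Ctsd+/+ cells, where Foxa1 and Ehf rose and Gata3 fell, against 23.4% of all genes, of which 11.0% rose and 12.3% fell. In Ctsd-/- cells 0 of 8 passed in edgeR, limma-voom and DESeq2, against 1.48% of all genes (1.11% higher and 0.369% lower), and none had an unadjusted p under 0.05 in edgeR. The interaction, the genotype difference in 1% FCS LT minus that in 1% FCS, passed for Foxa1 and Ehf, both negative, and Gata3, positive, against 19.1% of all genes, 8.12% negative and 11.0% positive. These comparisons share groups, so that the 3 Ctsd+/+ 1% FCS samples enter 3 of them.

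**Figure D4:**
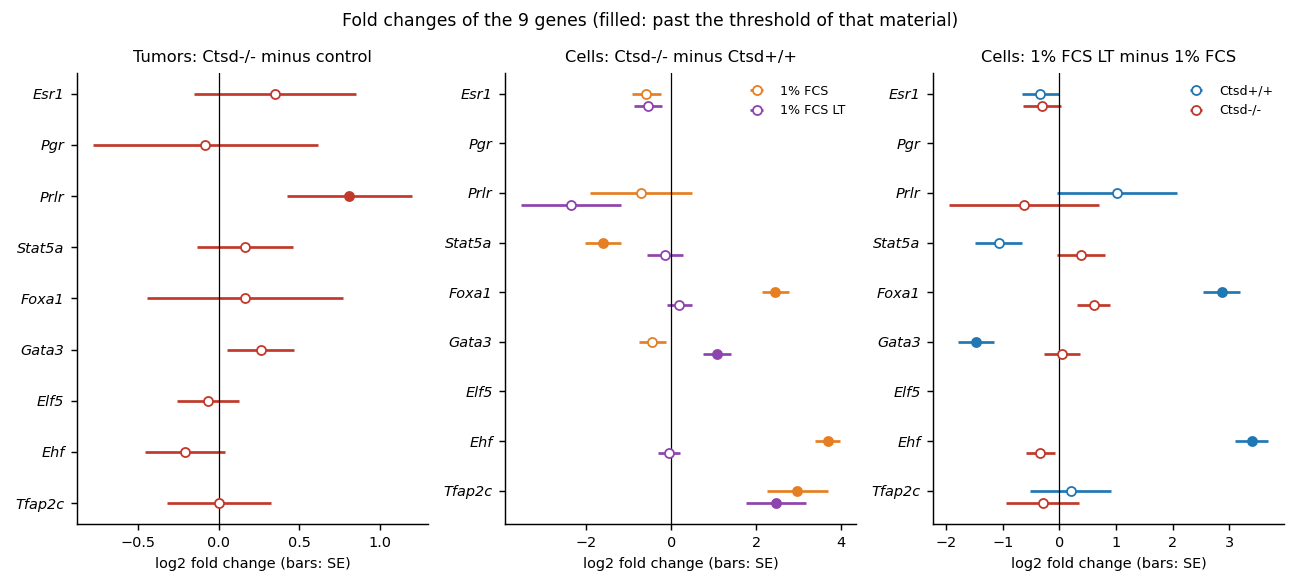
Log2 fold change with SE (bars) of the 9 genes between tumors of both genotypes, between cells of both genotypes in 1% FCS and 1% FCS LT, and between 1% FCS LT and 1% FCS in each genotype, with filled points past the threshold of that material. Pgr, with no or hardly any counts in Ctsd-/- cells, and Elf5, not tested in cells, have no points in the cell panels, and the points farthest from 0 are those of Ehf in 1% FCS (3.68) and in Ctsd+/+ cells over time (3.40).

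Foxa1 and Ehf shared a pattern over the cells, with their lowest levels in Ctsd+/+ 1% FCS cells. Foxa1 (chromosome 12, 57540628 to 57546916) had 1.01, 0.913 and 1.57 CPM in replicates 1 to 3 of Ctsd+/+ 1% FCS cells. It had 6.16, 6.70 and 7.04 CPM in Ctsd-/- 1% FCS cells, 7.54, 10.4 and 9.14 CPM in Ctsd+/+ 1% FCS LT cells and 7.16, 7.97 and 15.7 CPM in Ctsd-/- 1% FCS LT cells. The 3 Ctsd+/+ 1% FCS samples lay below the other 9. The Ctsd-/- 1% FCS samples lay just below all 6 samples of 1% FCS LT, whose genotypes overlapped. In 1% FCS the log2 FC between genotypes was 2.45 (SE 0.319, adjusted p = 7.17e-05). At 12 weeks it was 0.19 (SE 0.289, adjusted p = 0.630), and the interaction was -2.26 (SE 0.427, adjusted p = 0.00212). Over time Foxa1 rose in Ctsd+/+ cells by a log2 FC of 2.87 (SE 0.322, adjusted p = 2.75e-05). In Ctsd-/- cells the log2 FC over time was 0.61 (SE 0.291, adjusted p = 0.302).

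Ehf lies on chromosome 2 from 103263433 to 103303278, and its relative Elf5 follows it on the same chromosome from 103411688 to 103450989. Ehf had 2.98, 6.06 and 3.16 CPM in Ctsd+/+ 1% FCS cells and 51.4, 56.3 and 53.8 CPM in Ctsd-/- 1% FCS cells. After 12 weeks it had 38.6, 61.8 and 35.1 CPM in Ctsd+/+ and 37.8, 39.3 and 53.1 CPM in Ctsd-/- cells. The 3 low samples were again those of Ctsd+/+ cells at 10 days, without overlap with any other cell sample. At 10 days the genotype log2 FC was 3.68 (SE 0.296, adjusted p = 2.12e-06). At 12 weeks it was -0.055 (SE 0.260, adjusted p = 0.885), with an interaction of -3.74 (SE 0.388, adjusted p = 3.87e-05). In Ctsd+/+ cells Ehf rose over time by a log2 FC of 3.40 (SE 0.293, adjusted p = 3.72e-06). Among the 8 samples that share a description number, the log2 FCs in 1% FCS were 2.43 for Foxa1 and 3.55 for Ehf, beside 2.45 and 3.68 over all samples.

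Markers of cell type moved with these 2 genes. In the Ctsd+/+ 1% FCS samples the luminal sum was 1012, 1902 and 2464 CPM, and 12424 to 16494 CPM in Ctsd-/- 1% FCS, 7786 to 8259 CPM in Ctsd+/+ 1% FCS LT and 9441 to 12708 CPM in Ctsd-/- 1% FCS LT cells. The mesenchyme sum was 3791 to 6256, 15.7 to 21, 5.16 to 16.5 and 49.7 to 945 CPM in the same order of groups. In Ctsd+/+ 1% FCS cells 6 of the 9 mesenchyme markers had a mean of at least 1 CPM, and Lum and Fap had 3 counts or fewer in each sample. Of the defining luminal genes, Krt8 was at 209.5, 491 and 764 CPM and Epcam at 124, 170.3 and 145 CPM in the 3 samples. Ctsd-/- 1% FCS LT replicate 1, with 841 CPM of Vim, had 7.16 CPM of Foxa1 and 37.8 CPM of Ehf, close to replicate 2 with 526 CPM of Vim, while replicate 3 with 39.7 CPM of Vim had the highest Foxa1 and Ehf of its group. The part of cell state or of admixed cells in these results was not tested.

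**Figure D5:**
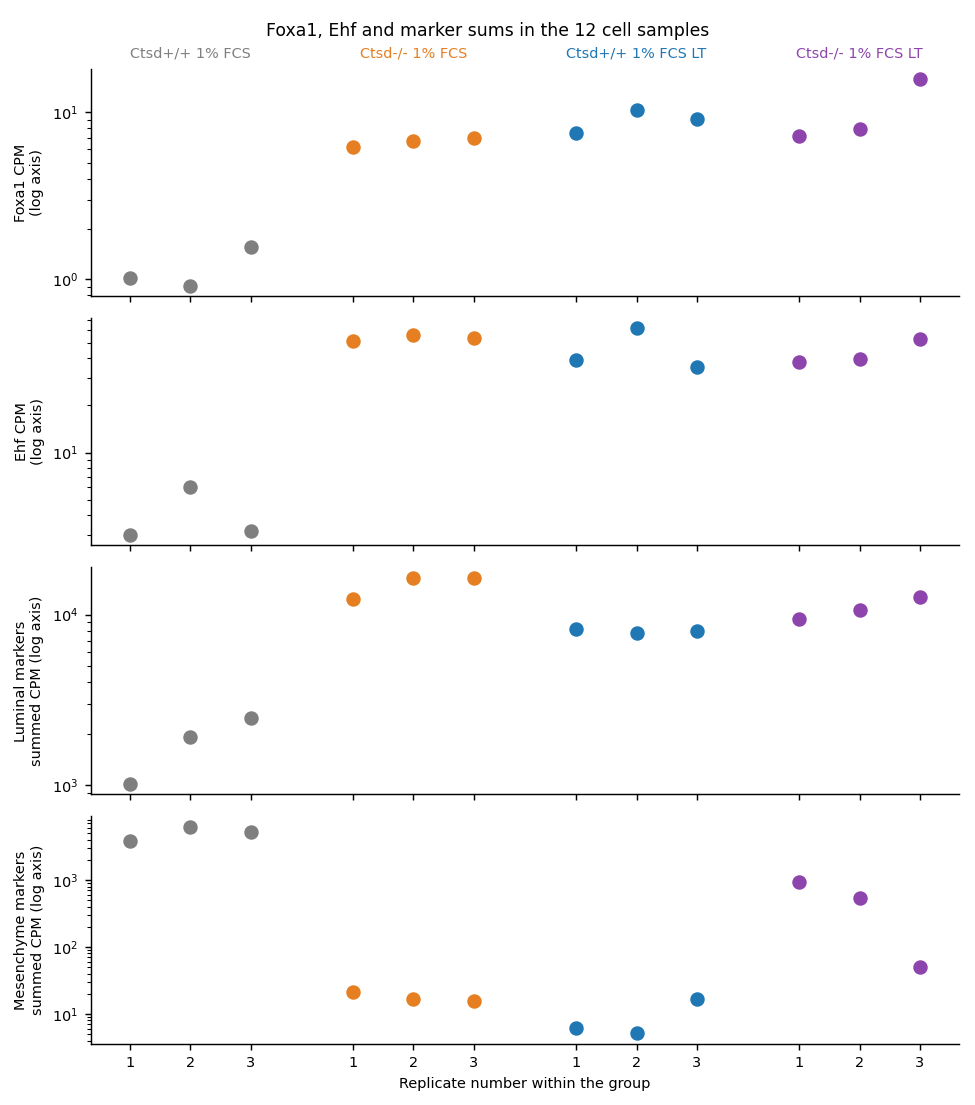
Foxa1 and Ehf (CPM) and the summed CPM of 10 luminal and of 9 mesenchyme markers in the 12 cell samples, with a point for each sample, its replicate number on the horizontal axis and log axes. The 3 Ctsd+/+ 1% FCS samples are the lowest for Foxa1, Ehf and the luminal sum and the highest for the mesenchyme sum.

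The promoter of Foxa1 is shown because Foxa1 rose over time in Ctsd+/+ cells along with Ehf, and no RefSeq promoter of Ehf was among the sequences used here. It lies at chr12:57546062-57546361 on the minus strand (GRCm38.p6), from 250 bases before to 50 bases after the start. Capitals mark a forkhead core, read on the opposite strand as GTAAACA and starting at -141, the motif of the family to which FOXA1 itself belongs.
Foxa1: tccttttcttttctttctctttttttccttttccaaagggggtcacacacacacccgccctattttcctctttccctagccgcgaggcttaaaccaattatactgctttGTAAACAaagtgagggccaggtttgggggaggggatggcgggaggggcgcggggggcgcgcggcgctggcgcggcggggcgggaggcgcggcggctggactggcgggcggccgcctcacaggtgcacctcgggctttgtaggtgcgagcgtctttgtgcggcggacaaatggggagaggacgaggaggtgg

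Tfap2c (chromosome 2, 172549593 to 172558622) was the member whose genotype difference was past the threshold at both times. It had 2.40, 0.639 and 0.104 CPM in Ctsd+/+ 1% FCS cells and 10.8, 8.25 and 6.71 CPM in Ctsd-/- 1% FCS cells. After 12 weeks it had 1.08, 0.725 and 2.03 CPM in Ctsd+/+ and 5.52, 7.33 and 8.47 CPM in Ctsd-/- cells. All 6 Ctsd-/- samples were thus above all 6 Ctsd+/+ samples. At 10 days its log2 FC was 2.97 (SE 0.722, adjusted p = 0.00517). At 12 weeks it was 2.47 (SE 0.704, adjusted p = 0.0153), with an interaction of -0.50 (SE 0.967, adjusted p = 0.739). Without Ctsd+/+ replicate 1 the log2 FC in 1% FCS was 4.52 (adjusted p = 0.000204). In 1% FCS LT the call was lost without Ctsd+/+ replicate 1 (2.38, adjusted p = 0.0535) or 2 (2.19, adjusted p = 0.0642). Over time in Ctsd+/+ cells the log2 FC of 0.20 (SE 0.717, adjusted p = 0.840) became 1.75 (adjusted p = 0.0406) without replicate 1 of the 10-day cells.

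Gata3 had another pattern, with the lowest levels in Ctsd+/+ cells after 12 weeks. The gene is at 9857078 to 9890034 of chromosome 2. Levels were 139, 77.5 and 78.4 CPM in Ctsd+/+ 1% FCS cells and 112, 47.8 and 65.3 CPM in Ctsd-/- 1% FCS cells. Values at 12 weeks were 33.3, 33.7 and 45.5 CPM in Ctsd+/+ and 99.9, 70.9 and 65.9 CPM in Ctsd-/- cells. The 3 Ctsd+/+ 1% FCS LT samples lay below the other 9. Gata3 changed over time in Ctsd+/+ cells by a log2 FC of -1.48 (SE 0.323, adjusted p = 0.00285), a fall where Foxa1 and Ehf rose. In Ctsd-/- cells the corresponding value was 0.049 (SE 0.316, adjusted p = 0.965). Between genotypes Gata3 was higher in Ctsd-/- cells at 12 weeks (log2 FC 1.08, SE 0.320, adjusted p = 0.0189). At 10 days it had -0.45 (SE 0.316, adjusted p = 0.264), with an interaction of 1.53 (SE 0.449, adjusted p = 0.0237). The call in 1% FCS LT was lost without Ctsd+/+ replicate 1 (1.01, adjusted p = 0.0622) or 2 (1.00, adjusted p = 0.0673) or without Ctsd-/- replicate 1 (0.88, adjusted p = 0.0708). The interaction call was lost without any of 5 of the 12 samples, among them Ctsd+/+ 1% FCS replicate 1 (1.17, adjusted p = 0.0505). Antisense genes overlap the Gata3 locus, and its opposite-strand counts were 1.13 to 1.19 times its unstranded counts in cells.

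Of the receptors, Esr1 was the most even over the cells. It had 27.4, 12.3 and 11.0 CPM in Ctsd+/+ 1% FCS cells, 15.6, 9.48 and 10.2 CPM in Ctsd-/- 1% FCS cells, 14.5, 12.3 and 15.7 CPM in Ctsd+/+ 1% FCS LT cells and 10.6, 10.8 and 7.48 CPM in Ctsd-/- 1% FCS LT cells. All neighbouring groups in the order of their means overlapped, tumors included, although in 1% FCS LT every Ctsd-/- sample was below every Ctsd+/+ sample. Between genotypes the log2 FC at 10 days was -0.58 (SE 0.331, adjusted p = 0.167). At 12 weeks it was -0.55 (SE 0.332, adjusted p = 0.209). Without Ctsd+/+ replicate 1 the 10-day value was -0.023 (adjusted p = 0.948).

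Pgr was detected mainly in Ctsd+/+ cells. It had 6.89, 1.00 and 0 CPM in Ctsd+/+ 1% FCS cells and no count in the 3 Ctsd-/- 1% FCS samples. The groups overlapped at 0, in Ctsd+/+ replicate 3. Against 3 counts in the smallest Ctsd-/- library, 0.0902 CPM, the Ctsd-/- level was at least 29.2-fold lower (edgeR adjusted p = 0.00867). Without Ctsd+/+ replicate 1 this bound was at least 5.57-fold lower (adjusted p = 0.0248), and limma-voom gave an adjusted p of 0.116. In 1% FCS LT there were 40 counts in Ctsd+/+ cells, at 0.166, 0.223 and 0.695 CPM, and 2 in Ctsd-/- cells, a ratio per library of 21.4 (95% exact interval 5.56 to 183, counting error only), and the difference did not pass (adjusted p = 0.145). In cells 42 counts also lay on the strand opposite to that of the 313 used. The log2 FC of Pgr over time in Ctsd+/+ cells was -2.95 (SE 1.31, adjusted p = 0.0911). This value was -0.51 (adjusted p = 0.748) without replicate 1 of the 10-day cells, and it passed without replicate 3 (-3.54, adjusted p = 0.00742) or without a filter on low counts (adjusted p = 0.0255). Prlr had at most 0.586 CPM in any cell sample, and none of its contrasts between cell groups passed over all samples. Over time in Ctsd+/+ cells its log2 FC was 1.01 (SE 1.06, adjusted p = 0.462). Among the 8 samples that share a description number this was 2.85 and passed (adjusted p = 0.0319), with counts of 3 and 1 in the samples at 10 days and of 11 and 21 in those at 12 weeks.

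Stat5a, the transducer of PRLR, was lower in Ctsd-/- cells in 1% FCS. It had 56.5, 28.8 and 19.4 CPM in Ctsd+/+ and 17.1, 10.6 and 8.30 CPM in Ctsd-/- 1% FCS cells, then 18.0, 18.0 and 16.7 CPM in Ctsd+/+ and 25.1, 13.1 and 9.55 CPM in Ctsd-/- 1% FCS LT cells. At 10 days replicate 1 was the highest of each genotype. Between genotypes the 10-day log2 FC was -1.60 (SE 0.430, adjusted p = 0.00904), without overlap. At 12 weeks it was -0.14 (SE 0.421, adjusted p = 0.823). The 10-day value was -1.04 (adjusted p = 0.0441) without Ctsd+/+ replicate 1 and -1.38 among the samples that share a description number. The change over time in Ctsd+/+ cells was -1.08 (SE 0.423, adjusted p = 0.0549). It passed in DESeq2 (adjusted p = 0.0206), without a filter (adjusted p = 0.0166) and without 10-day replicate 3 (-1.37, adjusted p = 0.0188), and was -0.52 (adjusted p = 0.296) without 10-day replicate 1. The interaction was 1.47 (SE 0.598, adjusted p = 0.0858). Stat5b, the close paralog that lies next to it on chromosome 11 from 100780731 to 100850724, was also lower in Ctsd-/- 1% FCS cells, with 35.2 ± 3.35 against 78.8 ± 13.6 CPM (SD, n = 3, log2 FC -1.22, SE 0.147, adjusted p = 4.11e-05), and over time in Ctsd+/+ cells (log2 FC -1.02, SE 0.146, adjusted p = 0.000165). Without 10-day Ctsd+/+ replicate 1 the latter was -0.85 (adjusted p = 0.00033), short of an absolute value of 1. Reads that fit both paralogs are not part of the counts.

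Other genes of these pathways were taken from 3 lists, of which 125 genes were tested in tumors and 109 in cells. Ctsd, the deleted gene, is itself on the list of genes that respond to these hormones or factors. It is counted below among the lower genes in Ctsd-/- tumors (log2 FC -1.25) and in Ctsd-/- cells in 1% FCS (-4.16) and 1% FCS LT (-3.74). In tumors 16 of the 125 were higher and 5 lower in Ctsd-/- tumors at an unadjusted p under 0.1, beside 8.44% and 8.27% of all genes, and 0 had an adjusted p under 0.05. These 21 calls became 8 without Ctsd-/- tumor 4, 9 without control tumor 3 and 11 with the adipocyte covariate. In cells 19 of the 109 were higher and 31 lower in Ctsd-/- cells in 1% FCS, beside 10.3% and 14.6% of all genes. In 1% FCS LT 13 were higher and 20 lower, beside 9.24% and 10.1%, and over time in Ctsd+/+ cells 22 rose and 22 fell, beside 11.0% and 12.3%. In Ctsd-/- cells over time only Igfbp4 passed, beside 1.48% of all genes, and rose by a log2 FC of 1.65 (SE 0.343, adjusted p = 0.0326). The call of Igfbp4 or the count of 1 changed without any of 4 of the 6 Ctsd-/- samples, and the count then ranged from 0 to 3. Over all 3 lists the median log2 FC was -0.26 in 1% FCS and -0.16 in 1% FCS LT, beside 0.00025 and 0.015 for all genes.

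The list of receptors, hormone signalling and coregulators had 42 genes tested in cells, of which 3 were higher and 9 lower in Ctsd-/- cells in 1% FCS, beside 10.3% and 14.6% of all genes. Erbb3, a receptor of the EGF receptor family, was higher with 218 against 37.4 CPM as group means (log2 FC 2.49, SE 0.195). At 12 weeks it was lower, with 162 against 353 CPM (log2 FC -1.12, SE 0.186), a value that fell short of an absolute 1 without Ctsd-/- replicate 2 (-0.99). Socs2, a feedback inhibitor that STAT5 is known to induce, was higher in Ctsd-/- cells at both times, with 141 against 54.4 CPM (log2 FC 1.31, SE 0.379, adjusted p = 0.0131) and 106.5 against 18.1 CPM (log2 FC 2.56, SE 0.397, adjusted p = 0.000361). Cish, the other classical STAT5 target of the list, did not pass in any contrast between cell groups. The vitamin D receptor Vdr was lower in Ctsd-/- cells at both times, with 7.01 against 91.4 CPM and 11.2 against 155 CPM.

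Among genes known to respond to these hormones or factors, 23 were tested in cells, of which 7 were higher and 8 lower in Ctsd-/- cells in 1% FCS, beside the same shares of all genes, 10.3% and 14.6%. The 8 lower genes include Ctsd, which was deleted by design. Greb1, a target of the estrogen receptor, had 67.3, 8.98 and 2.25 CPM in Ctsd+/+ 1% FCS cells and 1.57, 1.18 and 0.692 CPM in Ctsd-/- 1% FCS cells (log2 FC -4.58, SE 1.22, adjusted p = 0.00866). Without Ctsd+/+ replicate 1 this was -2.31 and did not pass (adjusted p = 0.0572). Its highest sample, Ctsd+/+ replicate 1, was also the highest of the 12 for Esr1 and Pgr. Igfbp4 and Cxcl12 had 517 to 1065 and 336 to 1062 CPM in Ctsd+/+ 1% FCS cells, and at most 390.4 and 131 CPM in any other cell sample. At 12 weeks the direction between genotypes was the opposite, with both higher in Ctsd-/- cells. The log2 FC was then 2.72 for Igfbp4 (adjusted p = 0.000114) and 3.89 for Cxcl12 (adjusted p = 0.000102). Areg, an estrogen-induced EGF receptor ligand, was higher in Ctsd-/- cells in 1% FCS, with 25.3 to 39.5 CPM in Ctsd+/+ and 76.9 to 122 CPM in Ctsd-/- cells (log2 FC 1.61, SE 0.225, adjusted p = 0.000121). Milk protein genes that prolactin and ELF5 are known to drive were at or near 0 in cells, except Csn3 and Btn1a1. Wap and Lalba had none in the 12 cell samples, against 13.2 to 115 and 419 to 3232 CPM in the 8 tumors, and Csn2 had 0.0261 CPM in a single cell sample. Csn3, the gene of kappa-casein, had 7850 to 23325 CPM in tumors, 0.666 to 4.81 CPM in Ctsd+/+ and 8.81 to 68.5 CPM in Ctsd-/- cells. Btn1a1 had group means of 70.7 CPM in control and 51.6 CPM in Ctsd-/- tumors. In cells its mean was 6.98 CPM in Ctsd+/+ 1% FCS and 65.1 to 70.0 CPM in the other groups.

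The list of other epithelial and luminal factors had 44 genes tested in cells, with 9 higher and 14 lower in Ctsd-/- cells in 1% FCS (10.3% and 14.6% of all genes), and 12 that rose and 8 that fell over time in Ctsd+/+ cells (11.0% and 12.3% of all genes). Elf3, an ETS factor related to EHF, had 1.59, 1.61 and 3.34 CPM in Ctsd+/+ 1% FCS cells and 16.4 to 60.5 CPM in the other 9 samples. Grhl2, a factor that maintains epithelial junctions, had 23.1 to 28.0 CPM in the former and 82.9 to 141 CPM in the latter. Tfcp2l1 had 2.48 to 4.83 CPM and 23.6 to 73.3 CPM. Like Foxa1 and Ehf, these 3 genes were lowest in the samples with the most Vim. Other genes of the list went the opposite way. Creb3l1 had 33.2 to 68.3 CPM in Ctsd+/+ 1% FCS cells, and group means of 0.556 to 0.896 CPM in the other cells. Foxa2 and Hey1 had means of 0 and 0.0183 CPM in Ctsd-/- 1% FCS cells, against 1.47 and 3.18 CPM in Ctsd+/+ 1% FCS cells. Spdef, a factor of secretory epithelium, and Sox10 had 13.8 to 39.4 and 116 to 314 CPM in tumors, and at most 0.0913 and 0.176 CPM in any cell sample.

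The genes with the most similar profile over the 12 cell samples were named for each member, by the mean absolute difference of centred log2 CPM values among 15113 genes. For Ehf they were Nfe2l3 (0.26), Bspry (0.29) and Shtn1 (0.30), and for Foxa1 Lnx1 (0.20), Zfand2a (0.20) and Baiap2l1 (0.23). Foxa1 stood at rank 104 from Ehf with a difference of 0.50, beside a mean deviation of Ehf itself from its own mean of 1.32. Ranks were taken in a single direction per pair of members, and no other pair was as close in rank. By the difference itself Esr1 and Stat5a were closer (0.40, rank 3698 from Esr1). For Gata3 the most similar were Sptan1 and Atg16l2 (both 0.18), and for Tfap2c Rtn4r (0.45) and Acp5 (0.47). For Pgr they were Gm15482 (0.50), Ano4 (0.58) and Igfbp5 (0.64), the last a gene with 9.58, 0.274 and 0.104 CPM in Ctsd+/+ 1% FCS cells. These are descriptions over samples that share 4 groups, so that a difference between groups alone makes profiles alike.

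RefSeq promoters, of 250 bases before to 50 bases after a start, were found for 7 of the 9 genes, 12 promoters in all, and not for Ehf and Tfap2c. The palindromic estrogen response element GGTCANNNTGACC was in none of the 12, and in 0.0700% of all 32851 promoters. The forkhead core TGTTTAC was in those of Foxa1 and Prlr shown above and in 3.65% of all, and the STAT palindrome TTCNNNGAA in 1 promoter each of Prlr and Esr1 and in 8.30% of all. The AP-2 palindrome GCCNNNGGC, read by factors such as TFAP2C, was in 1 promoter each of Esr1 and Gata3 and in 16.6% of all, and occurred 3 times in that of Gata3. The GATA core AGATAA was in none, and in 11.2% of all. TGACC, the last letters of the estrogen response element, was in 5 of the 12 promoters, of Esr1, Foxa1, Gata3 and Stat5a, and in 40.5% of all. Both strands were searched, a match is a match of letters in this window only, and no binding was measured in these samples.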

How the data were processed

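The authors trimmed reads with Trimmomatic, mapped them with STAR to GRCm38 (mm10), and deposited raw counts per Ensembl gene, unnormalized, in an unstranded, a same-strand and an opposite-strand form for each of the 20 samples. Rows of reads on no single gene (unmapped, several positions, no gene or several genes) held 24.7% to 32.7% of tumor and 14.8% to 18.9% of cell reads and were left out. Tumor libraries were made from less RNA than cell libraries. Unstranded counts were used for tumors (52.8% to 53.7% of stranded counts on the opposite strand) and opposite-strand counts for cells (97.1% to 97.3%). Symbols, positions and exon lengths were taken from GENCODE M21, which matched 45143 of 45706 identifiers. The annotation behind the counts is not given in the sources used here.

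Counts were tested in R 4.3.3 with edgeR 4.0.16 (TMM, filterByExpr, two-sided quasi-likelihood F-test, Benjamini-Hochberg over all genes tested), for 18617 genes in 8 tumors, 15178 in 12 cell samples (1 mean per group) and 19180 in all 20. Adjusted p-values come from edgeR where no tool is given. SE is the log2 FC divided by the square root of F. CPM values are on the TMM scale of all 20 samples, from which a scale within tumors or cells differs by -5.12% to 4.76%. Thresholds followed the study, with an unadjusted p of 0.1 in tumors and an adjusted p of 0.05 with an absolute log2 FC of 1 in cells. The study added this fold cut, together with a cut on expression, in its network and pathway analysis of Ctsd-/- cells over time. Here the fold cut was applied to all cell comparisons, and the expression cut was not used. A group with no count in any sample gives a bound against 3 counts in its smallest library. With few counts, a ratio of summed counts per library is given. Intervals and bounds cover counting error only. Replicates of a group never agreed within sampling noise (chi-square per gene from 16.5 to 616).

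The 9 genes and the lists were chosen with earlier results of these data known. Besides the 9 genes, Ctsd and Stat5b, the genes to name were up to 3 per direction, list and comparison past the threshold and without overlap of groups, ranked by the size of the log2 FC, and the 3 most similar in profile to each member. Cish, Areg, Spdef, milk protein and marker genes that the text names outside this rule were chosen after their values were seen. Same-numbered samples deviated together between genotypes in 1% FCS (r over genes 0.120 to 0.426) and between times in Ctsd-/- cells (0.114 to 0.259), all 3 pairs above 0.1, but not in the other comparisons. In 1% FCS, however, Ctsd-/- replicate 2 had a higher r of 0.252 with another number. Replicate 1 of both genotypes had a description number of its own there, which cannot be told apart from pairing. The replicate number was an alternative term.

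The procedure was tested on simulated data. With 200 genes changed 4-fold, edgeR recovered 90.5% of them among 18132 genes in a tumor design and 97.0% among 14897 in a cell design. Of its calls at an adjusted p under 0.05, 4.23% and 3.48% were false. For limma-voom these shares were 6.74% and 2.54%. DESeq2 had more false calls, 21.1% and 14.3%, so a pass in DESeq2 alone was read with more caution. The simulated counts were drawn with spreads that edgeR had estimated, so the order of the tools is not independent of edgeR. Only genes above a floor of mean CPM were changed. Pgr, Prlr, Elf5 and Tfap2c in cells and Pgr in tumors lay below it, so recovery at their levels was not measured. Alternatives were DESeq2 1.42.0 and limma-voom (limma 3.58.1), DESeq2's size factors, other filters, the other strand form, the replicate number, marker covariates in tumors, the 8 cell samples with the same description number, and leaving out each sample. Leaving out samples for the named pathway genes in cells was added after seeing the data. No columns other than counts were present.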

Additional observations from a re-analysis of the deposited data

Results flagged for a closer look

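Esr1 in control tumors was flagged because 1 of the 4 tumors lay far from the others. Control tumor 1 had 24.9 CPM and the other control tumors 9.75 to 11.2 CPM, and the gap to its nearest neighbour made up 0.901 of the range of the group. Of 18 sets of 4 tumors tested, 1 was flagged, and chance flags about 1 in 20.

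The difference between genotypes was itself different at 12 weeks and at 10 days for Foxa1, Ehf and Gata3, by the interaction term in edgeR. The interaction was -2.26 for Foxa1 (adjusted p = 0.00212), with all 3 Ctsd+/+ 1% FCS samples at or below 1.57 CPM and the other 9 cell samples at 6.16 CPM or more. It was -3.74 for Ehf (adjusted p = 3.87e-05), with at most 6.06 CPM in the former and at least 35.1 CPM in the latter. For Gata3 it was 1.53 (adjusted p = 0.0237), with 33.3 to 45.5 CPM in Ctsd+/+ 1% FCS LT cells and 47.8 to 139 CPM in the other 9 samples.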

How the results depend on the processing

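The results were recomputed with other tools, normalizations, filters, strand forms, covariates and samples, 1 change at a time. Of 212 recomputed counts of genes past the threshold, 189 stayed within 1.5 times the value reported and 23 did not. In tumors the count of members past the threshold, 1 as reported, was 0 in limma-voom, 0 with the replicate number as a block, 2 with adipocyte markers (Pgr and Tfap2c) and 0 with luminal markers as a covariate, and 0 to 1 on leaving out 1 tumor, where without Ctsd-/- tumor 4 the 1 was Pgr. The 21 pathway genes in tumors became 12 with the replicate block, 11 with the adipocyte and 11 with the luminal covariate, and 8 to 29 on leaving out 1 tumor. In 1% FCS LT the members past the threshold numbered 0 to 2 on leaving out 1 sample. Over time in Ctsd+/+ cells they numbered 5 without a filter, where Pgr and Stat5a passed, and 3 to 5 on leaving out 1 sample. Over time in Ctsd-/- cells the 1 pathway gene became 5 in DESeq2, 6 without a filter, 6 among the 8 samples with the same description number and 0 to 3 on leaving out 1 sample.

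Signs turned in tumors with the adipocyte covariate for Esr1 (-1.07), Prlr (-0.28), Foxa1 (-1.38), Ehf (0.27) and Stat5a (-0.44), and with the luminal covariate for Foxa1 (-0.011). All 9 adipocyte markers were themselves past the threshold as higher in Ctsd-/- tumors, so this covariate and genotype cannot be fully separated in the 8 tumors. Tfap2c in tumors, at 0.0042 as reported, had -0.012 in DESeq2, -0.11 in limma-voom, -0.012 with DESeq2's size factors, -0.0013 with a filter on mean CPM and -0.11 with the replicate block. Among the 8 cell samples with the same number the sign turned in 1% FCS LT for Foxa1 (-0.24) and Stat5a (0.083), over time in Ctsd+/+ cells for Esr1 (0.15), over time in Ctsd-/- cells for Esr1 (0.097) and Prlr (2.87), and in the interaction for Esr1 (-0.054) and Prlr (0.021). The interaction of Esr1 was also -0.11 in limma-voom and -0.048 with the replicate block. None of these values was past the threshold as reported except Prlr in tumors, and the cause was not tested.

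On leaving out 1 sample, log2 FCs that changed sign ranged in tumors from -0.19 to 0.79 for Esr1, -1.11 to 0.26 for Pgr, -0.53 to 0.69 for Foxa1, -0.15 to 0.0085 for Elf5 and -0.25 to 0.22 for Tfap2c. In 1% FCS Prlr ranged from -3.63 to 1.15. In 1% FCS LT Foxa1 ranged from -0.24 to 0.40, Ehf from -0.22 to 0.23 and Stat5a from -0.62 to 0.13. Over time in Ctsd+/+ cells Esr1 ranged from -0.58 to 0.21 and Tfap2c from -0.35 to 1.75, and in Ctsd-/- cells Prlr from -2.28 to 2.29, Gata3 from -0.19 to 0.45 and Stat5a from -0.10 to 0.73. The interaction ranged from -0.53 to 0.28 for Esr1, -3.50 to 1.28 for Prlr and -2.04 to 0.047 for Tfap2c, and the difference between cells and tumors from -0.27 to 0.65 for Esr1. The interaction of Stat5a passed in DESeq2 (adjusted p = 0.0382), without a filter (0.0311), with the replicate block (0.0168) and among the 8 samples (0.0414).

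With the replicate block 1816 genes in tumors passed in place of 3112. In the 2 comparisons where same-numbered samples deviated together, 3795 passed in place of 3790 in 1% FCS and 241 in place of 225 over time in Ctsd-/- cells. The block changed no call among the 9 genes other than Prlr in tumors and Stat5a in the interaction. In cells Prlr, Pgr and Elf5 had 97, 313 and 66 counts in all, and the share of differences that could be detected at such counts was not measured.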
